A study of Mus musculus with 18 samples.

Results

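The genes described here are 46 components of the complement and coagulation systems of mouse plasma. They were taken as a written list of gene symbols, chosen with earlier results of these data known. Of the 46, 42 had at least 1 probe set naming that gene alone, and 41 of these had a probe set above log2 4 on at least 3 arrays; they are the members tested among 9053 genes. C5ar1, the receptor for the complement fragment C5a, did not exceed a log2 signal of 2.67 on any array and was left out as too dim. C3, C4b, Cfd and Cpb2 were not analysed here, because no probe set names them alone in the annotation used. Complement and coagulation are cascades of plasma proteases, in which an inactive precursor is cut by the enzyme before it and then cuts the next. Complement starts by the classical, lectin or alternative route and ends in a pore, the membrane attack complex, whereas coagulation starts from contact activation or tissue factor and ends in fibrin. Hepatocytes make most of these proteins, many of them are acute-phase proteins, and a few, among them C1q, properdin and factor VIII, come mainly from macrophages, leukocytes or endothelial cells.

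Each of the 18 arrays held RNA of 1 sample, from male mice in a study of Tlr4 and the gut microbiota in hepatocellular carcinoma (HCC). Normal liver (n = 3, numbered 1 to 3) came from untreated wild-type (WT) C3H/HeOuJ mice aged 15 weeks. WT tumours (n = 7, numbered 16 to 22) were HCC lesions of C3H/HeOuJ mice that were given 100 mg/kg diethylnitrosamine (DEN), a liver carcinogen, in week 12 and 0.5 ml/kg CCl4, a liver toxin, in weeks 13 to 23, and were killed at 54 weeks. Tlr4-mutant tumours (n = 5, numbered 23 to 27) came from C3H/HeJ mice after the same DEN and CCl4; their allele Tlr4P712H impairs the response to bacterial lipopolysaccharide and is carried by the whole animal. Antibiotic tumours (n = 3, numbered 28 to 30) came from WT C3H/HeOuJ mice after the same DEN and CCl4 which in weeks 10 to 54 also drank ampicillin, neomycin and metronidazole at 1 g/l each with vancomycin at 500 mg/l. All 3 tumour groups therefore share the carcinogen, the toxin and the older age, and C3H/HeJ and C3H/HeOuJ are separate substrains, so that their other differences go with the Tlr4 allele. Whether a group's samples came from separate animals is not given in the sources used here, and the p-values reflect only how far these samples varied, which could be technical. The tissue is bulk, and fewer cells of a type and less RNA per cell cannot be told apart in any value below.

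Arrays were alike in their overall level, with a median log2 signal of the expressed probe sets between 6.69 and 6.85. The Gapdh control differed, its 3' minus 5' log2 difference being 1.37 to 1.61 in normal liver and 0.20 to 1.02 in the 15 tumours, so tissue, age and RNA or labelling quality cannot be told apart in a comparison of tumour with normal liver. The 7 hepatocyte markers, which include the plasma proteins Alb, Ttr and Apoa1, were bright in every sample except for Tat. Their mean log2 signal was 13.47 to 13.61 in normal liver, 12.52 to 13.57 in WT tumours, 13.38 to 13.74 in Tlr4-mutant tumours and 13.48 to 13.67 in antibiotic tumours, the lowest being WT tumour 19. None of the 7 passed in any comparison, while Tat, the enzyme tyrosine aminotransferase, ranged from 6.15 (in WT tumour 19) to 11.92 among WT tumours.

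Against normal liver, the falls in WT tumours that held with any array left out were those of the lectin proteases Masp1 and Masp2, of plasma prekallikrein (Klkb1) and of C8b in the pore-forming end of complement. For Masp1 this was the fall of its brightest probe set, and its other probe sets did not pass. Factor B (Cfb), kininogen (Kng1) and protein S (Pros1) rose, and the fibrinogen chains were nearly level. Of the 41 members tested, 15 passed at a limma adjusted p under 0.05, 5 higher and 10 lower. That is 36.6% of the members, where 39% of all genes passed (18.8% higher and 20.2% lower), and the median log2 change was -0.01 for the members and -0.01 for all genes, so as a whole the list moved no more often than other genes. In Tlr4-mutant tumours 6 members passed against normal liver, 5 higher and 1 lower, which is 14.6% beside 22.3% of all genes (11.7% higher and 10.5% lower). In antibiotic tumours 3 passed, 2 higher and 1 lower, which is 7.32% beside 15% of all genes (8.11% higher and 6.91% lower). The 3 normal livers are shared by these comparisons. The count for WT tumours dropped to 7 when any 1 of the 3 normal livers was left out. For Tlr4-mutant tumours it was 2 without any 1 normal liver and 11 without WT tumour 19, which enters the shared estimate of the spread. For antibiotic tumours it was 1 without any 1 normal liver and 6 without antibiotic tumour 28. Leaving out an array refits all genes, whose shares in these fits are not given here, so such counts are not particular to the members.

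**Figure D1:**
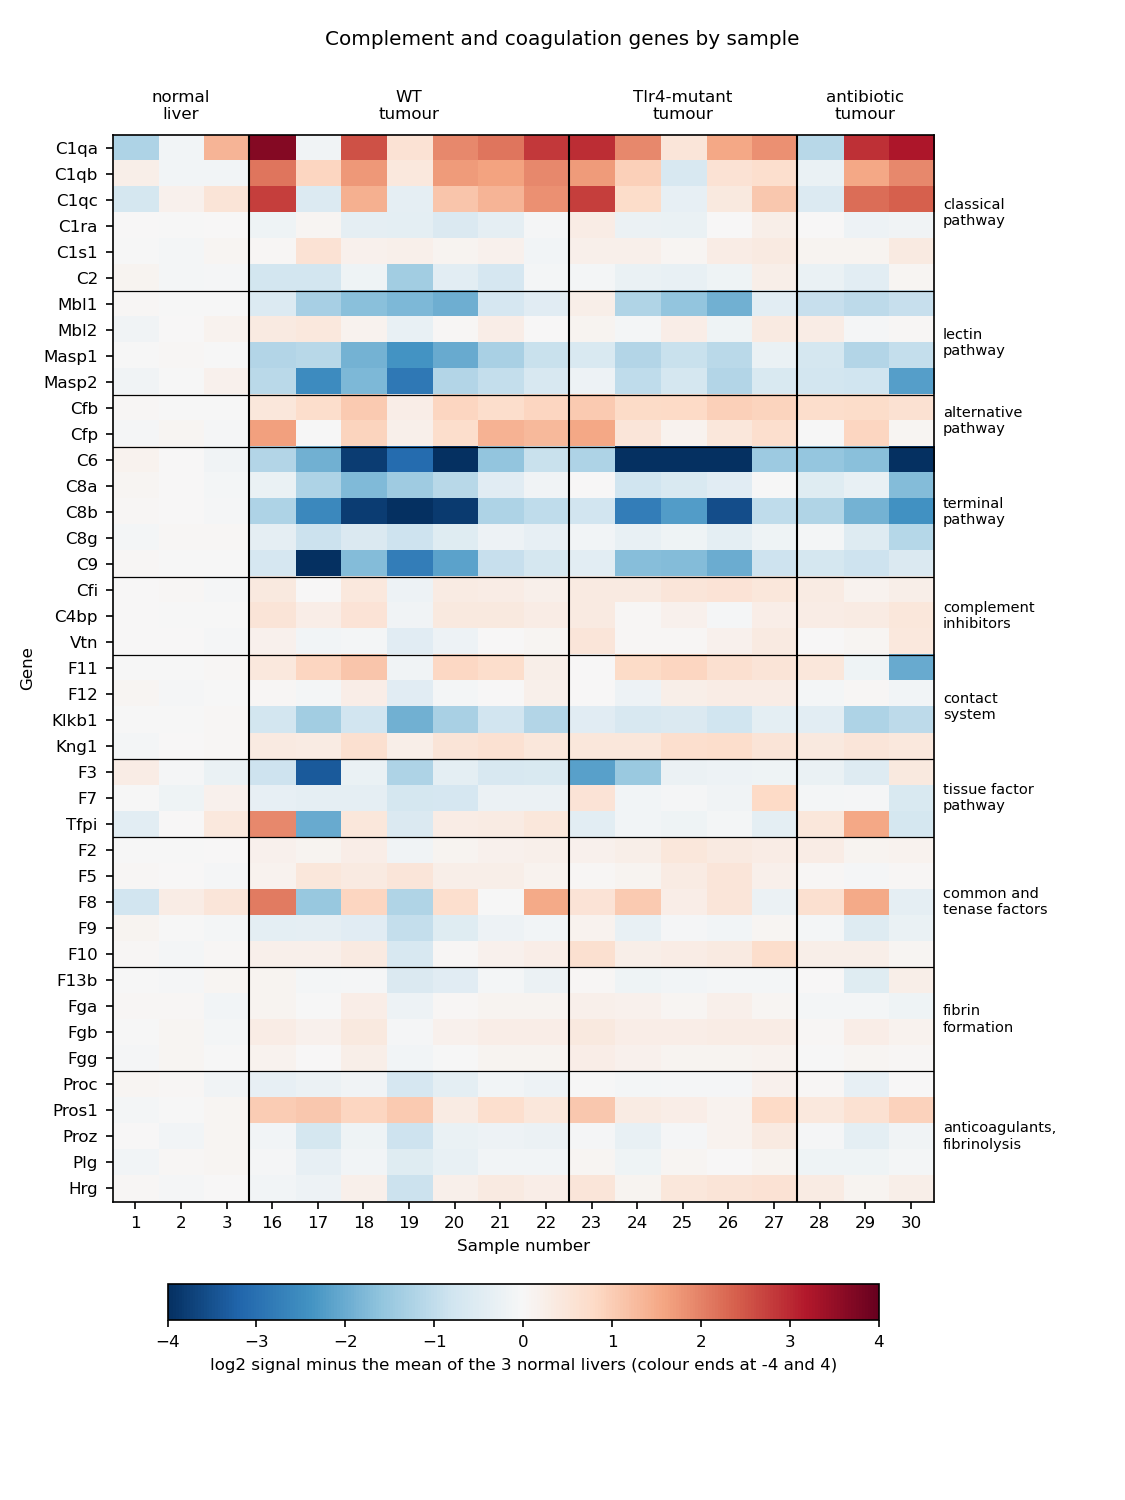
Log2 signal of each of the 41 tested genes (rows, grouped by role) in each of the 18 samples (columns), minus the mean of the 3 normal livers; blue is lower and red higher, and the colour scale ends at -4 and 4. The terminal genes C6, C8b and C9 and the lectin genes Mbl1, Masp1 and Masp2 are blue in nearly all tumours, the C1q genes are red in most, and the fibrinogen rows Fga, Fgb and Fgg are almost white.

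The classical route starts when C1q, built of chains encoded by C1qa, C1qb and C1qc, binds antibody and activates the proteases C1r and C1s, which then cut C2 and C4. C1qb rose in WT tumours. It read 7.24, 7.24 and 7.60 in normal liver and 7.78 (lowest), 9.05 (median) and 9.51 (highest) in WT tumours, so the groups did not overlap. The change was 1.49 ± 0.49 (log2, SE), a 2.80-fold rise (limma adjusted p = 0.0247), but this was lost without any 1 of the 3 normal livers (adjusted p from 0.0112 to 0.0817 with 1 array left out). Both other probe sets of C1qb were higher by 2.26 and 0.81 without passing (limma adjusted p = 0.0551 and 0.0888). C1qa and C1qc had log2 changes of 1.93 ± 0.92 and 1.08 ± 0.76 (SE), neither passing (limma adjusted p = 0.106 and 0.273). Of the 6 classical genes tested, C1qb was the only one to rise and C2 the only one to fall in WT tumours, and none passed in the other tumour groups.

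Among tumours, most samples with the highest or lowest C1q values of their group also had its highest or lowest mean over 12 macrophage markers. Not every sample or single marker followed this. Antibiotic tumour 28 had the lowest C1qa (4.88), C1qb (7.09) and C1qc (4.13) of its group, within or below the range of normal liver, and its mean over 12 macrophage markers was 4.99 against 6.81 and 6.70 in antibiotic tumours 29 and 30. Among Tlr4-mutant tumours, number 23 had the highest and number 25 the lowest value of all 3 C1q genes and of the marker mean (7.32 and 5.65). Among WT tumours, number 16 was highest for all 3 genes and for the marker mean (7.19), and numbers 17 and 19 held the lowest 2 values of each gene and of the marker mean (4.67 and 5.31). The markers Cd14 and Cd68 were instead highest of the WT group in number 17 (10.26 and 5.75). In number 16 Cd14 was only 8.31. WT tumour 18 was among the 3 highest of its group for each C1q gene, yet its marker mean (5.92) was below the group's median (6.42). Antibiotic tumour 30 exceeded number 29 in all 3 C1q genes, whereas its marker mean was lower. In normal liver the marker mean was 4.79, 5.49 and 5.97 in numbers 1 to 3, an order that C1qa and C1qc shared and C1qb did not, its highest value (7.60) being in number 1. Of 10 macrophage markers tested in WT tumours, 3 rose (Cd68, Lyz2 and Cd14) and 0 fell, beside 18.8% and 20.2% of all genes, whereas the Kupffer cell markers Clec4f and Vsig4 did not pass, and Marco and Timd4 were below log2 4 throughout. The part of macrophage number in the C1q values was not tested.

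**Figure D2:**
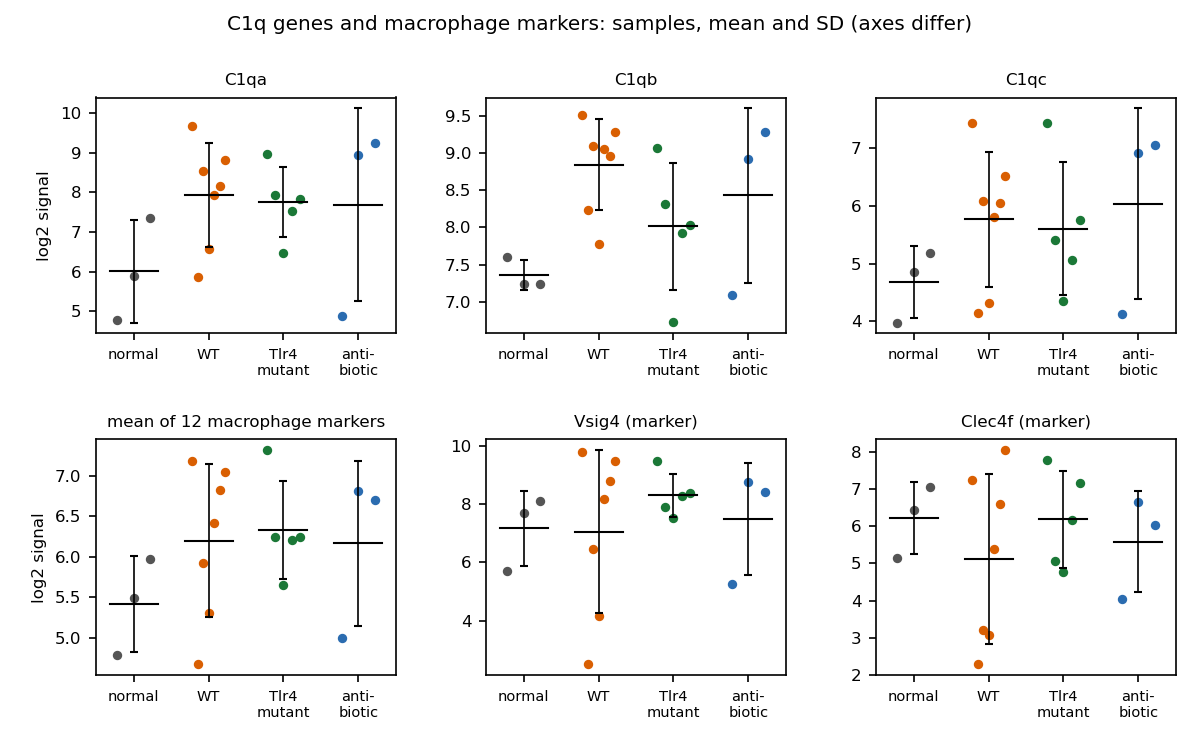
Log2 signal of C1qa, C1qb and C1qc, of the mean of 12 macrophage markers and of the Kupffer cell markers Vsig4 and Clec4f; points are samples, black lines are group means and bars are SDs, with n = 3, 7, 5 and 3 from left to right and axes that differ between panels. C1qb is above all 3 normal livers in all 7 WT tumours, and antibiotic tumour 28 is the lowest of its group in every panel.

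The other classical genes changed little. C2, the protease part of the classical convertase, had 9.22, 9.92 and 10.54 as its lowest, median and highest log2 signal in WT tumours against 10.54, 10.55 and 10.73 in normal liver, the groups just failing to overlap. It fell by 0.60 on the log2 scale (limma adjusted p = 0.0403). The call was lost without any 1 normal liver and without WT tumours 16, 17 or 21 (adjusted p from 0.0169 to 0.135 with 1 array left out), and its 2 other probe sets gave -0.44 and -0.28 without passing. C1ra and C1s1, the C1r and C1s proteases, had log2 changes between -0.26 and 0.23 in all 3 tumour groups, none passing. Near-identical copies of both genes exist in the mouse (C1rb and C1s2), so that their probes may read more than 1 gene.

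In the lectin route mannose-binding lectins (Mbl1, Mbl2) recognise sugars on microbes and the proteases Masp1 and Masp2 carry the signal on. Of these 4 genes 3 fell in WT tumours, where 20.2% of all genes fell, and the median log2 change was -1.37. Masp1 read 11.61, 11.61 and 11.66 in normal liver and 9.23, 10.33 and 10.73 (lowest, median, highest) in WT tumours. It fell by 1.54 ± 0.28 on the log2 scale (SE), which is 2.90-fold (limma adjusted p = 0.000809). Masp2 read 8.56, 8.69 and 8.89 in normal liver and 5.85, 7.54 and 8.08 in WT tumours. It fell by 1.57 ± 0.44 (SE), 2.98-fold (limma adjusted p = 0.0102). In neither gene did a WT tumour reach the normal range, and both calls held with each array left out in turn.

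The 4 probe sets of Masp1 did not all show the fall. The brightest, used above, gave -1.54, another -0.70 and the next -0.28, both without passing, and the last gave 0.02 (limma adjusted p = 0.181, 0.350 and 0.967 for the 3 others). Masp1 transcripts are alternatively spliced, and which transcripts each probe set reads was not tested. For Masp2 the second probe set also fell, by 0.59 (limma adjusted p = 0.0456).

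Mbl1 read 10.80, 10.81 and 10.87 in normal liver and 8.88, 9.50 and 10.37 in WT tumours, with no overlap. Its log2 change was -1.21 ± 0.41 (SE; limma adjusted p = 0.0275), a call lost without any 1 normal liver (adjusted p from 0.0128 to 0.0801 with 1 array left out). Mbl2, its close relative, read 0.14 ± 0.15 (log2, SE) above normal liver and did not pass. In the other tumour groups none of the 4 lectin genes passed. Masp1 was nonetheless below all 3 normal livers in every one of them, at 10.46, 10.56, 10.74, 11.03 and 11.36 in Tlr4-mutant tumours and 10.45, 10.67 and 10.93 in antibiotic tumours. The log2 changes were -0.80 and -0.94 (limma adjusted p = 0.0642 and 0.0652).

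The alternative route amplifies complement through factor B (Cfb), the protease of its convertase, and properdin (Cfp), which stabilises that enzyme. Cfb rose in all 3 tumour groups. Its log2 signal was 11.30, 11.31 and 11.37 in normal liver, and 11.59, 12.03 and 12.37 (lowest, median, highest) in WT tumours. It was 12.10, 12.11, 12.23, 12.28 and 12.38 in Tlr4-mutant tumours and 11.95, 12.03 and 12.07 in antibiotic tumours. All 15 tumours thus lay above all 3 normal livers. The changes were 0.70 ± 0.14, 0.90 ± 0.15 and 0.69 ± 0.16 (log2, SE), or 1.62-, 1.86- and 1.61-fold (limma adjusted p = 0.00139, 0.000669 and 0.0117). The 3 calls share their normal livers, and each held with every array left out in turn.

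Cfp, which leukocytes make, was below log2 4 in all 3 normal livers (3.37, 3.37 and 3.49) and reached 3.38, 4.30 and 5.04 (lowest, median, highest) in WT tumours. The WT mean was 1.21-fold above log2 4, but the groups overlapped and the change did not pass (limma adjusted p = 0.0574).

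The terminal components C6, C8 and C9 assemble into the membrane attack complex, C8 being made of alpha, beta and gamma chains (C8a, C8b and C8g). All 5 tested genes were below normal liver in WT tumours without overlap, and 4 of the 5 passed as lower, beside 20.2% of all genes. Their median log2 change was -1.89. Of the 41 members, 13 were below normal liver without overlap in WT tumours, beside 20% of all genes. Lack of overlap in either direction was found for 18 of the 41 and for 38.4% of all genes.

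C8b had the largest fall of the members that passed in WT tumours. It read 11.51, 11.58 and 11.62 in normal liver and 7.51, 9.004 and 10.54 (lowest, median, highest) in WT tumours. The change was -2.54 ± 0.72 (log2, SE), 5.82-fold lower (limma adjusted p = 0.0115), and the call held with each array left out. WT tumours 18, 19 and 20 stood together between 7.51 and 7.76, and numbers 16, 21 and 22 between 10.33 and 10.54. C9, the subunit that lines the pore, read 13.66, 13.67 and 13.73 in normal liver and 9.36, 11.95 and 13.02 in WT tumours. It fell by 1.89 ± 0.61 (log2, SE), 3.71-fold (limma adjusted p = 0.0223), a call lost without any 1 normal liver (adjusted p from 0.0130 to 0.0682 with 1 array left out). The lowest value was that of WT tumour 17.

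C6 had the widest spread among tumours of the 41 members. Its log2 signal was 9.63, 9.78 and 9.91 in normal liver, 4.92, 7.85 and 8.88 in WT tumours, 3.46, 4.99, 5.74, 8.32 and 8.53 in Tlr4-mutant tumours, and 4.45, 8.11 and 8.24 in antibiotic tumours. Every tumour was below every normal liver. The fall passed only in Tlr4-mutant tumours, at -3.56 ± 1.17 (log2, SE), 11.8-fold (limma adjusted p = 0.0386), and it was lost without any 1 normal liver or Tlr4-mutant tumours 24, 25 or 26 (adjusted p from 0.0185 to 0.109 with 1 array left out). In WT and antibiotic tumours the log2 changes were -2.47 and -2.84 (limma adjusted p = 0.0867 and 0.146). Tlr4-mutant and WT tumours did not differ detectably in C6 (-1.10 ± 0.94 log2, SE; limma adjusted p = 0.564).

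The 2 other chains of C8 fell less than C8b. C8a had a log2 change of -0.92 in WT tumours, 1.89-fold lower, at a limma adjusted p of 0.04996 that lies just inside the threshold. C8g fell by 0.51 on the log2 scale, 1.42-fold (limma adjusted p = 0.0384). Both calls were lost without any 1 normal liver and without WT tumours 17, 18, 19 or 20, and that of C8a also without any 1 Tlr4-mutant tumour or antibiotic tumour 28 (adjusted p from 0.0243 to 0.131 for C8a and from 0.0122 to 0.113 for C8g with 1 array left out). In Tlr4-mutant tumours C8b, C8a, C8g and C9 had log2 changes of -2.07, -0.38, -0.22 and -1.33, and in antibiotic tumours of -1.84, -0.85, -0.57 and -0.71, none passing. None of the 5 terminal genes passed in a comparison between tumour groups.

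**Figure D3:**
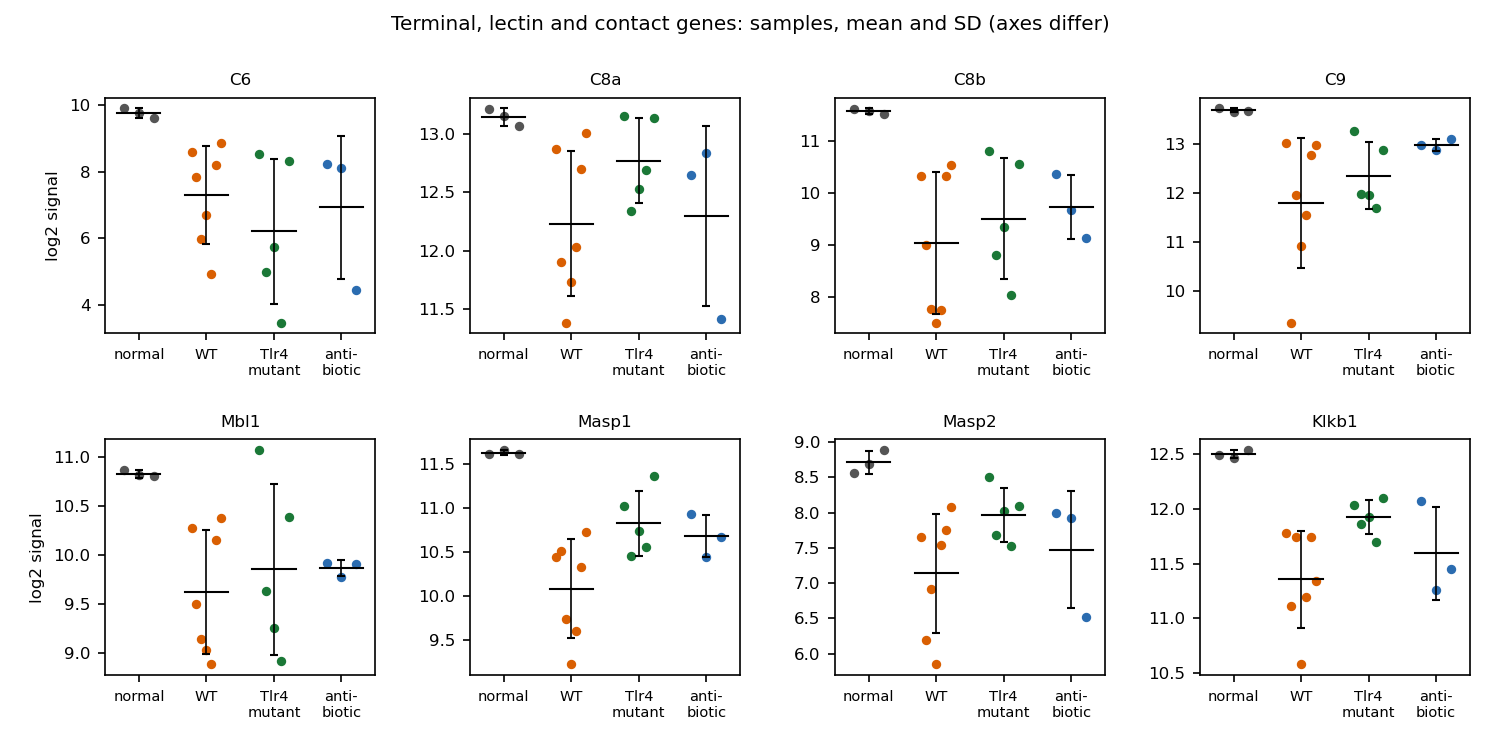
Log2 signal of 4 terminal genes, 3 lectin genes and Klkb1 in every sample; points are samples, black lines are group means and bars are SDs, with n = 3, 7, 5 and 3 from left to right and axes that differ between panels. The normal livers sit close together and above all WT tumours in each panel, with C8b from 7.51 to 10.54 in WT tumours, while Mbl1 in Tlr4-mutant tumour 23 (11.07) lies above them.

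C8b and C8a are neighbouring genes on chromosome 4, with no other protein-coding gene between them, whereas C9 lies on chromosome 15. The promoters of these 3 genes are shown as 3 of the 4 terminal genes that fell in WT tumours. Each runs from 250 bases before to 50 bases after the start of the RefSeq transcript (build GRCm38.p6), 5' to 3' on the gene's own strand, with matches on either strand to 5 motifs of liver transcription factors in capitals.
C8b (chr4:104766067-104766366, + strand): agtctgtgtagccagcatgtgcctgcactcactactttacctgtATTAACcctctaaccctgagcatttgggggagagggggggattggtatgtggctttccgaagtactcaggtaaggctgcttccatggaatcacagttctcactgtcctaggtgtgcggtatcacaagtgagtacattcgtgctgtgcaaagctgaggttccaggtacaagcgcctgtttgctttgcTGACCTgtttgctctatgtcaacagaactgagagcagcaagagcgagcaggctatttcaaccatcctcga
C8a (chr4:104876349-104876648, - strand): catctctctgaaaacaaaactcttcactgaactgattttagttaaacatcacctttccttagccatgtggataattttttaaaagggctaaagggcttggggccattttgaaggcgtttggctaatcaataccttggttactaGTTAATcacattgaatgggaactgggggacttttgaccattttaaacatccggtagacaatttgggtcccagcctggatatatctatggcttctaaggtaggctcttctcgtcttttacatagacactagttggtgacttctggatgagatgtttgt
C9 (chr15:6445096-6445395, + strand): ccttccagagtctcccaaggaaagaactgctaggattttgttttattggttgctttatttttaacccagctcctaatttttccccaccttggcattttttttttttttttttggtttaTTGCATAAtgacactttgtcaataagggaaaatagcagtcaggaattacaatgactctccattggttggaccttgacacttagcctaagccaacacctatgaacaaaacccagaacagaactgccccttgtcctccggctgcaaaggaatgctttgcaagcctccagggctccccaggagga
C8b held a match to the HNF1 core GTTAAT 206 bases before the start and to the nuclear receptor core AGGTCA 20 bases before it, both read on the other strand. C8a held the HNF1 core at 107 bases, and C9 a C/EBP match (TTGCNNAA) at 132 bases. C8g, which also fell, held no match to any of the 5 motifs in its 2 promoter windows, which are not printed. Of the 40 promoter windows of the 37 members in the table, 11 (27.5%) held the C/EBP motif, beside 10.8% of all 32851 promoter windows. The HNF1 core was held by 11 (27.5%), beside 7.10%, and the nuclear receptor core by 13 (32.5%), beside 16.3%. The STAT3 motif TTCCNGGAA was held by 2 member windows (5.0%), beside 1.15% of all windows, and the HNF4 motif CAAAGTCCA by 0, beside 0.475%. No matches of different motifs overlapped, and a match describes the letters only.

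Among genes that restrain complement, factor I (Cfi) cuts the active fragments of C3 and C4, C4b-binding protein (C4bp) assists it and vitronectin (Vtn) blocks pore assembly. None of the 3 passed in WT tumours. Cfi rose in Tlr4-mutant tumours, from 13.06, 13.10 and 13.13 in normal liver to 13.45, 13.46, 13.55, 13.58 and 13.65, with no overlap. The change was 0.44 ± 0.13 (log2, SE; limma adjusted p = 0.0251), lost without any 1 normal liver or Tlr4-mutant tumours 25 or 26 (adjusted p from 0.00838 to 0.0851 with 1 array left out). It did not differ detectably from WT tumours, where Cfi was 0.20 above normal liver (Tlr4-mutant minus WT 0.24 ± 0.11 log2, SE; limma adjusted p = 0.275). C4bp and Vtn had log2 changes between -0.08 and 0.36 in the 3 tumour groups.

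The contact system consists of factor XII (F12), factor XI (F11), plasma prekallikrein (Klkb1) and kininogen (Kng1), from which kallikrein releases bradykinin. Klkb1 and Kng1 moved in opposite directions. Klkb1 read 12.47, 12.49 and 12.54 in normal liver and 10.58, 11.34 and 11.78 (lowest, median, highest) in WT tumours. The fall was 1.14 ± 0.23 on the log2 scale (SE), 2.21-fold (limma adjusted p = 0.00147), and held with each array left out. In antibiotic tumours it read 11.26, 11.45 and 12.07 and fell by 0.91 (limma adjusted p = 0.0344), a call lost without any 1 normal liver or antibiotic tumours 29 or 30 (adjusted p from 0.0128 to 0.144 with 1 array left out). Tlr4-mutant tumours read 11.70, 11.86, 11.93, 12.04 and 12.10, a change of -0.57 that did not pass (limma adjusted p = 0.0969). All 15 tumours were below all normal livers.

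Kng1 read 13.80, 13.89 and 13.91 in normal liver and 14.11, 14.33 and 14.50 in WT tumours. It rose by 0.45 ± 0.10, 0.56 ± 0.11 and 0.44 ± 0.12 (log2, SE) in WT, Tlr4-mutant and antibiotic tumours (limma adjusted p = 0.00373, 0.00239 and 0.0275). These rises are small, 1.37-, 1.48- and 1.35-fold, but no tumour overlapped normal liver. The call in antibiotic tumours was lost without any 1 normal liver or antibiotic tumour 29 (adjusted p from 0.0226 to 0.0982 with 1 array left out). The other probe set of Kng1 was 0.31 higher in WT tumours without passing (limma adjusted p = 0.0786), and the near-identical gene Kng2 may share its signal. F12 changed by no more than 0.13 in size in any group, and F11 by 0.57, 0.56 and -0.57 in WT, Tlr4-mutant and antibiotic tumours, none passing.

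Tissue factor (F3) and its ligand factor VII (F7) start coagulation outside the vessel, and Tfpi is their inhibitor. None of the 3 passed against normal liver in any tumour group. F3 had a log2 change of -1.05 ± 0.57 (SE) in WT tumours, where number 17 stood far below the rest at 3.69, the next lowest being 5.80. Tfpi was dim, with 1.80, 4.13 and 5.73 as its lowest, median and highest log2 signal in WT tumours, and below log2 4 in all 5 Tlr4-mutant tumours.

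Of the factors that form the tenase and prothrombinase complexes, factor IX (F9) fell and factor V (F5) rose in WT tumours, both slightly. F5 read 12.31, 12.35 and 12.38 in normal liver and 12.48, 12.58 and 12.82 in WT tumours, a rise of 0.30 ± 0.11 (log2, SE; limma adjusted p = 0.0460). The call was lost without any 1 normal liver, WT tumours 17 to 21, Tlr4-mutant tumours 25 or 27, or antibiotic tumours 28 or 29 (adjusted p from 0.0353 to 0.135 with 1 array left out). F9 fell by 0.42 (log2; limma adjusted p = 0.0421), lost without any 1 normal liver, WT tumours 16, 18, 19 or 20, or Tlr4-mutant tumour 25 (adjusted p from 0.0233 to 0.145). Prothrombin (F2) rose by 0.31 in Tlr4-mutant tumours (log2; limma adjusted p = 0.0481), from 13.23, 13.24 and 13.26 in normal liver to 13.42, 13.49, 13.54, 13.60 and 13.71. That call was lost without any 1 normal liver, WT tumours 16, 17, 20, 21 or 22, Tlr4-mutant tumours 24 to 27, or antibiotic tumour 29 (adjusted p from 0.0272 to 0.127). Factor X (F10) did not pass in any group.

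Factor VIII (F8), made in the liver by sinusoidal endothelial cells, ranged from 2.91 to 6.52 among WT tumours and did not pass. Its lowest WT values were in numbers 17 (2.91) and 19 (3.23), which also had the lowest mean over 10 endothelial markers, at 3.26 and 5.21. The endothelial mean was 5.58 to 6.44 in normal liver, 6.40 to 7.01 in the 5 other WT tumours, 6.34 to 6.79 in Tlr4-mutant tumours and 5.24 to 7.65 in antibiotic tumours. Antibiotic tumour 29 had both the highest F8 (5.94) and the highest endothelial mean of its group, and number 30 both the lowest (4.06). In WT tumour 17 the sinusoidal markers Stab2 and Clec4g read 3.21 and 2.33, below the level taken as expressed. The part of endothelial cell number in F8 and Tfpi was not tested.

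Fibrinogen, the protein that thrombin turns into fibrin, is built from chains encoded by Fga, Fgb and Fgg, adjacent genes on chromosome 3, and F13b is the carrier subunit of the enzyme that cross-links fibrin. These genes were nearly level. Fgb read 14.00, 14.06 and 14.15 in normal liver and 14.03, 14.33 and 14.46 in WT tumours. It rose in Tlr4-mutant tumours alone of the 3 tumour groups, to 14.33, 14.35, 14.37, 14.38 and 14.46, by 0.31 ± 0.10 (log2, SE; limma adjusted p = 0.0397). This was lost without any 1 normal liver or any 1 Tlr4-mutant tumour (adjusted p from 0.0228 to 0.142 with 1 array left out), and Tlr4-mutant minus WT tumours was 0.09 ± 0.08 (SE; limma adjusted p = 0.587). Fga and Fgg had log2 changes between -0.10 and 0.15 in the 3 groups, none passing, with 95% intervals in WT tumours of -0.14 to 0.27 and -0.11 to 0.26. F13b did not pass in any group.

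The promoters of Fga and Fgb are shown for comparison with those of the terminal genes, because Fga and Fgb stayed near their normal level in tumours in which C8b and C9 were low.
Fga (chr3:83025903-83026202, + strand): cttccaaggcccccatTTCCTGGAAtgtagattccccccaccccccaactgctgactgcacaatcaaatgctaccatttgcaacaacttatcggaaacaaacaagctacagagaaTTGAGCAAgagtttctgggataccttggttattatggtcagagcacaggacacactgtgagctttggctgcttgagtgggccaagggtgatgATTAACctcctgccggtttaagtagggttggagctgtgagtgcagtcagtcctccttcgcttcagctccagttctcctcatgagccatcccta
Fgb (chr3:83049814-83050113, - strand): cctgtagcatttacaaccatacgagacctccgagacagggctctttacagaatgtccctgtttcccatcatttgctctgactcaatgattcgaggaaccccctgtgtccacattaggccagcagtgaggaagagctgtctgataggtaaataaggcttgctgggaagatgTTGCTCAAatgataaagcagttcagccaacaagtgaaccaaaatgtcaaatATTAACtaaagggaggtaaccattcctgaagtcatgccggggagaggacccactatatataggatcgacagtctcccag
Fga held 3 matches, to the STAT3, C/EBP and HNF1 motifs at 234, 135 and 43 bases before the start. Fgb held a C/EBP match at 80 bases and an HNF1 match at 29 bases. The HNF1 core thus occurred in Fga, Fgb, C8a and C8b alike, and the C/EBP motif in Fga, Fgb and C9. Fgg, also near its normal level, held neither, its only match being the nuclear receptor core at 201 bases before the start. C8g, which fell, held no match.

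Among anticoagulant and fibrinolytic genes, protein S (Pros1), the cofactor of activated protein C and a partner of C4b-binding protein, rose in WT tumours. It read 8.89, 8.95 and 9.03 in normal liver and 9.30, 9.81 and 10.05 in WT tumours, without overlap. The rise was 0.78 ± 0.21 (log2, SE), 1.71-fold (limma adjusted p = 0.00866), and held with each array left out. In Tlr4-mutant and antibiotic tumours Pros1 was 0.53 and 0.64 above normal liver, again without overlap but not passing (limma adjusted p = 0.0945 and 0.0853). Protein C (Proc), protein Z (Proz), plasminogen (Plg) and histidine-rich glycoprotein (Hrg) had log2 changes of -0.30, -0.36, -0.21 and -0.02 in WT tumours, none passing.

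**Figure D4:**
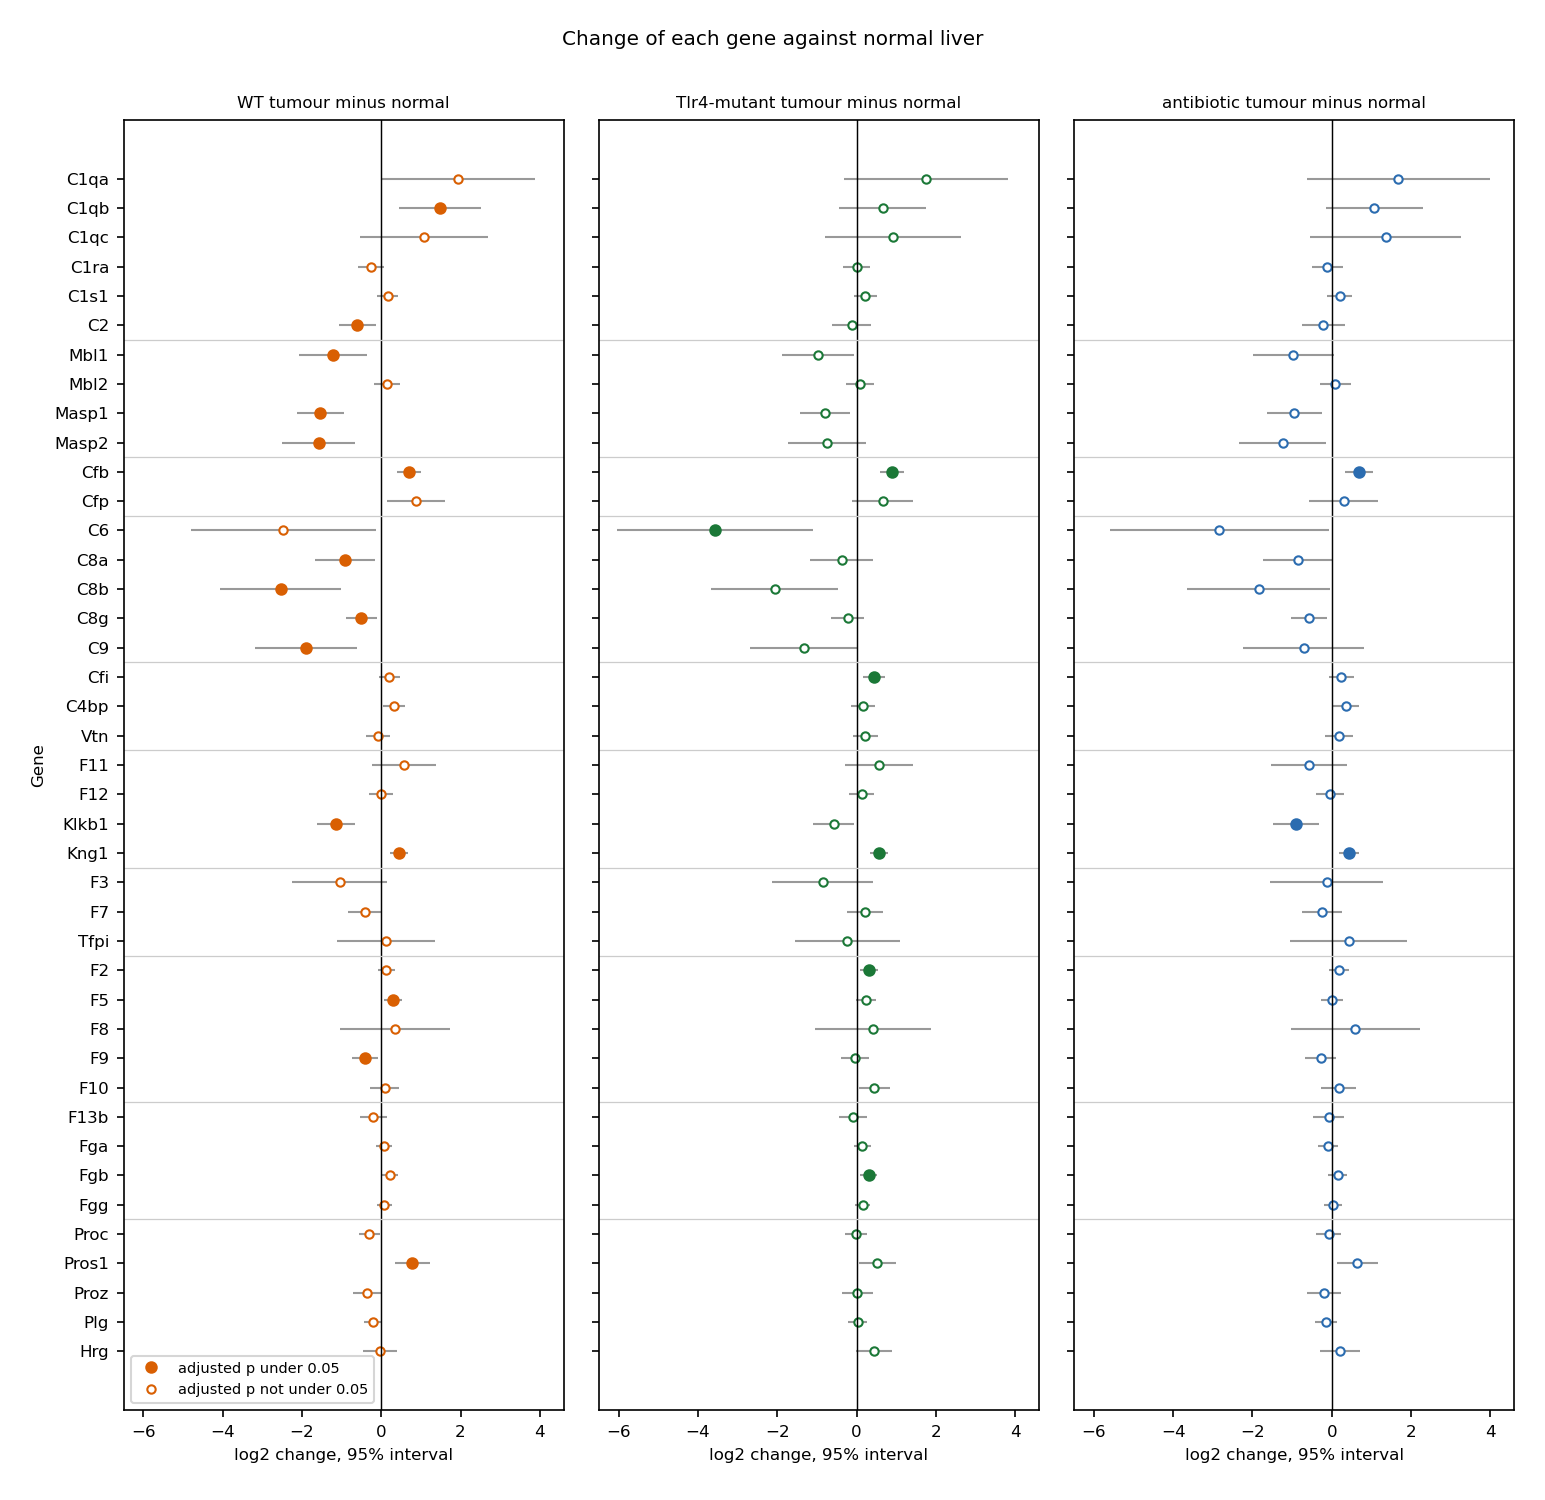
Log2 change of each gene (rows, in the order of the roles above) in WT, Tlr4-mutant and antibiotic tumours against the same 3 normal livers, with 95% intervals; filled points passed at a limma adjusted p under 0.05. Filled points number 15, 6 and 3, and Cfb and Kng1 are filled in all 3 panels.

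Tumours of the 3 groups were then compared with each other, to ask whether the Tlr4 allele or the antibiotics went with another level of these genes. No member passed in any of the 3 comparisons with limma, where 0.265% of all genes passed between Tlr4-mutant and WT tumours, 0.0884% between antibiotic and WT tumours and 0.232% between Tlr4-mutant and antibiotic tumours. At an unadjusted p under 0.05, 14 members differed between Tlr4-mutant and WT tumours, all 14 higher in Tlr4-mutant tumours, beside 16.7% of all genes in either direction, 9.41% higher and 7.29% lower. The median log2 change was 0.19 for the members and 0.03 for all genes, and 30 of the 41 were positive, beside 53.4% of all genes. The hepatocyte markers were also all 7 positive, with a median of 0.16, and 8 of 9 endothelial markers were positive, with a median of 0.53; their part in the members' shift was not tested. The count was 7 without Tlr4-mutant tumour 27, 10 higher and 2 lower without WT tumour 19, and 8 higher and 3 lower without WT tumours 17 and 19. The share of all genes at that p dropped as well, to 10.6%, 13.6% and 10.9%. The 14 were C1ra, C2, Masp1, Masp2, Cfi, Vtn, Klkb1, F7, F9, F10, Proc, Proz, Plg and Hrg, which except for Masp1, Masp2, Klkb1 and F7 differed by less than 0.50 on the log2 scale.

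F7 had the smallest p of the members between Tlr4-mutant and WT tumours. It read 9.86, 10.19 and 10.32 (lowest, median, highest) in WT tumours and 10.40, 10.44, 10.49, 11.11 and 11.35 in Tlr4-mutant tumours, so that these groups did not overlap, while normal liver at 10.39, 10.53 and 10.73 lay among the Tlr4-mutant tumours. The difference was 0.62 ± 0.17 (log2, SE; limma adjusted p = 0.147). Proc was the other member without overlap (0.29 log2; limma adjusted p = 0.214), beside 1.61% of all genes. Masp1 and Klkb1 were next by p, at 0.74 ± 0.24 and 0.57 ± 0.19 (log2, SE; limma adjusted p = 0.182 and 0.204), their values overlapping with those of WT tumours. In both, Tlr4-mutant tumours lay between WT tumours and normal liver on average, for Masp1 by its brightest probe set. The other probe sets of Masp1 gave 0.34, -0.12 and -0.27 (log2) between Tlr4-mutant and WT tumours, none passing. F7, F10 and Proz are neighbouring genes on chromosome 8, as are F11 and Klkb1. F7, F10 and Proz were all among the 14, with differences of 0.62, 0.36 and 0.38, and each was highest of all 15 tumours in Tlr4-mutant tumour 27.

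Between antibiotic and WT tumours 3 members had an unadjusted p under 0.05, 1 higher and 2 lower, beside 15.5% of all genes. The count was 1, lower, without antibiotic tumour 30 (9.27% of all genes), and 3 higher and 2 lower without WT tumour 22 or antibiotic tumour 29 (18.4% of all genes each). F11 read 10.42, 11.26 and 11.68 (lowest, median, highest) in WT tumours and 8.53, 10.40 and 11.02 in antibiotic tumours, the low value being that of number 30. The difference was -1.15 ± 0.39 (log2, SE; limma adjusted p = 0.203), and over the leave-one-out fits it ranged from -1.66 to -0.42, the last being without number 30. F5 read 12.30, 12.39 and 12.39 in antibiotic tumours, below all 7 WT tumours, the single member without overlap there, beside 4.04% of all genes. It differed by -0.28 ± 0.11 (log2, SE; limma adjusted p = 0.256). Masp1 was 0.60 ± 0.28 higher (log2, SE; limma adjusted p = 0.319), with overlap. Its other probe sets gave 0.35, -0.00885 and -0.13 (log2), none passing. Antibiotic tumour 30 also had low C8a (11.41), C8g (11.88), C6 (4.45) and Masp2 (6.52), yet the highest C9 (13.10) and Pros1 (9.87) of its group.

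Between Tlr4-mutant and antibiotic tumours 2 members, F11 and Fga, had an unadjusted p under 0.05, beside 10.3% of all genes. F11 read 10.57, 11.09, 11.21, 11.31 and 11.42 in Tlr4-mutant tumours, 1.14 ± 0.41 above antibiotic tumours (log2, SE; limma adjusted p = 0.345), and 0.41 to 1.65 above with 1 array left out. The lowest of these was without antibiotic tumour 30, where the count of members at that unadjusted p was 0, beside 8.07% of all genes. Fga read 13.79, 13.80, 13.89, 13.93 and 13.93 against 13.56, 13.65 and 13.66, a difference of 0.24 ± 0.10 without overlap (log2, SE; limma adjusted p = 0.431). F7 came next, at 0.45 (log2; limma adjusted p = 0.494), its antibiotic values being 9.94, 10.48 and 10.50. All 3 fibrinogen genes with Cfb, Cfi and F5 were above antibiotic tumours without overlap, which makes 6 members, beside 5.71% of all genes in either direction and 3.71% higher. Several of these gaps were very narrow. The lowest Tlr4-mutant and highest antibiotic values were 13.935 and 13.930 for Fgg, 12.396 and 12.389 for F5, and 14.329 and 14.320 for Fgb.

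**Figure D5:**
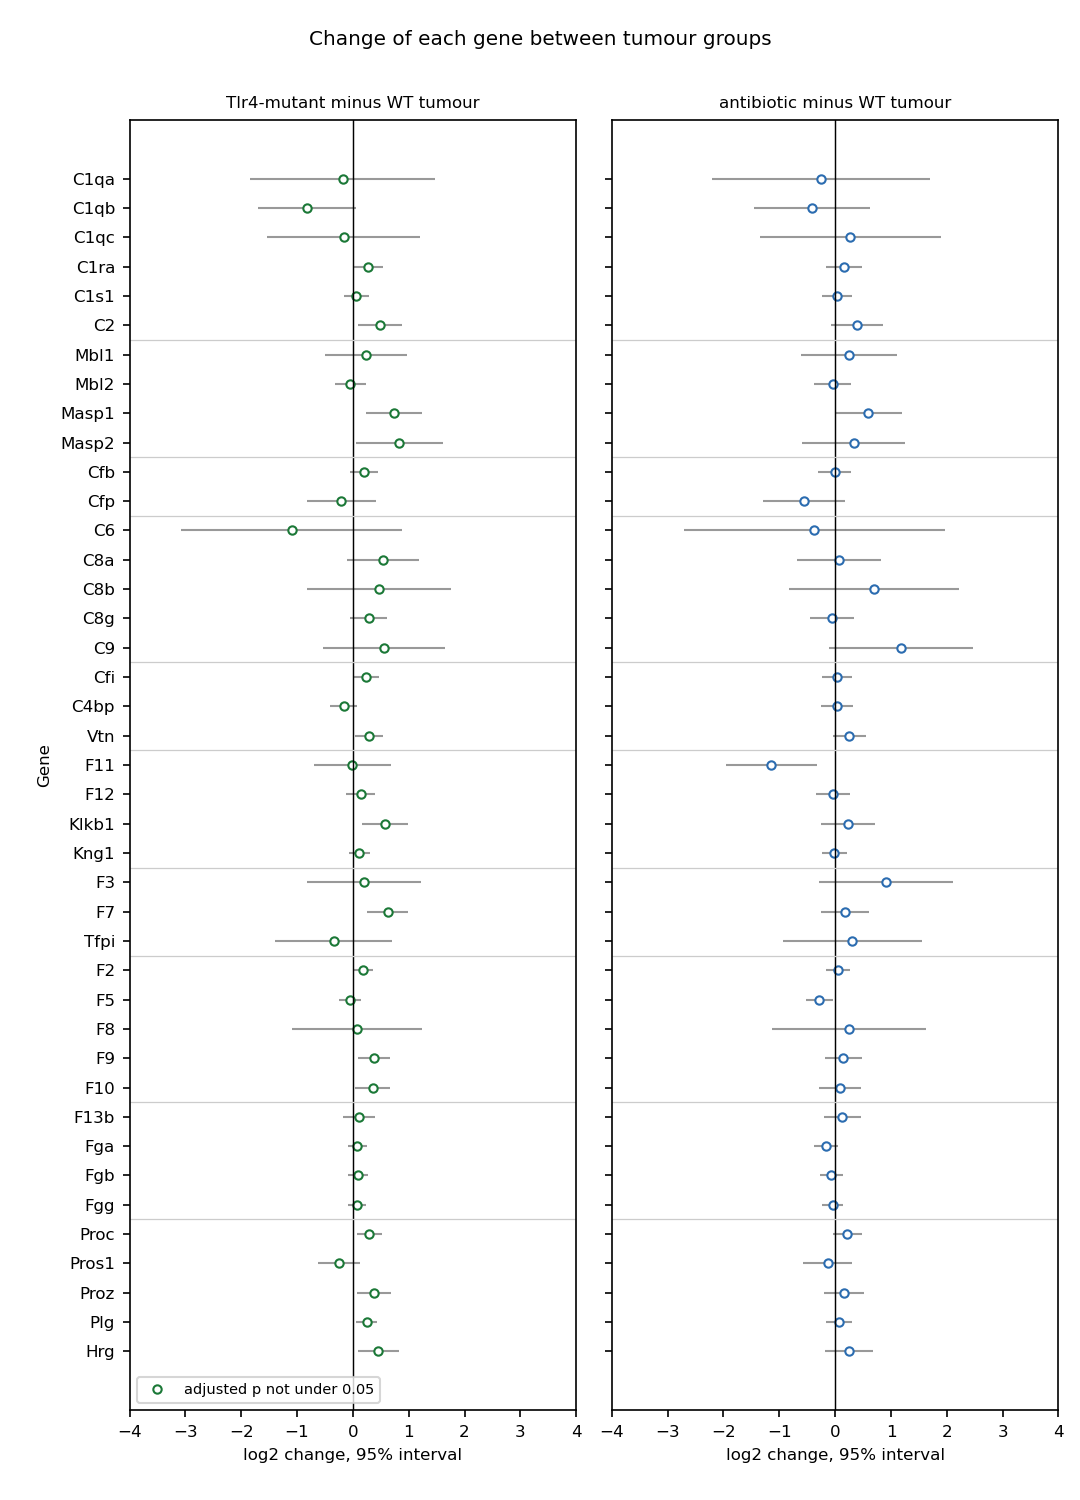
Log2 difference of each gene (rows) between Tlr4-mutant and WT tumours and between antibiotic and WT tumours, with 95% intervals; open points did not pass at a limma adjusted p under 0.05. No point is filled, most points in the left panel lie right of 0, and C6 has the widest interval in both panels.

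Samples within a tumour group differed far more in some genes than in others. The SD within groups over the 15 tumours, pooled, was 0.09 for Fgg, 0.11 for Fga and for Fgb, 0.12 for F2 and 0.13 for Kng1 and for Plg, and 1.86 for C6, 1.45 for C1qa, 1.26 for C1qc, 1.21 for C8b, 1.06 for F8 and 1.02 for C9. The median was 0.29 for the members and 0.32 for all genes. Brighter probe sets vary less on this scale: the 90 genes with a mean above log2 13, 7 of them members, had a median of 0.16, and the highest value of any probe set on any array was 15.0. C9, at a mean of 13.69 in normal liver, and C8a, at 13.15, are also bright there and yet spread from 9.36 to 13.27 and from 11.38 to 13.16 among tumours.

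The same tumours were low or high for many members. WT tumour 19 held the lowest of all 15 tumours for 24 of the 41 members, among them all fibrinogen chains, F2, F7, F9, F10, Masp1, Masp2, Klkb1 and C8b, whereas it was lowest for 12.5% of all genes. It was also the tumour with the lowest mean of hepatocyte markers, mostly through Tat, which read 6.15 against a WT median of 9.97. The other markers were nearer to their WT medians. Alb read 14.48 (median 14.55), Ttr 14.44 (14.59), Apoa1 14.71 (14.80), Apoh 13.68 (13.93), Serpina1c 13.06 (13.63) and Asgr1 11.13 (11.27). WT tumour 17 was lowest for only 4 of the 41 members (C9, F3, F8 and Tfpi), beside 14.2% of all genes. Tlr4-mutant tumour 23 was highest for 13 members and number 27 for 9, beside 8.26% and 8.80% of all genes. Within the WT group, tumours 16, 21 and 22 were the 3 highest for 10 members, namely C6, C8a, C8b, C8g, C9, Cfp, Masp2, Mbl1, F7 and Vtn, and for 9.39% of all genes. All 5 terminal genes are in that set. Such counts describe these samples, and members made by the same cells do not count as independent.

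Genes of the same pathways outside the list were read from the same fit. Of 30 further complement genes 15 were tested, and in WT tumours 2 rose and 3 fell, beside 39% of all genes. The pore inhibitor Cd59a fell by 1.12 (log2; limma adjusted p = 0.00886), C1qbp by 0.92 (limma adjusted p = 0.000175) and Cpn2, a subunit of the carboxypeptidase that inactivates anaphylatoxins, by 0.49 (limma adjusted p = 0.0188). The leukocyte integrin Itgb2 rose at least 1.96-fold (adjusted p = 0.00924 by limma), and clusterin (Clu), which binds the nascent pore, by 0.38 (log2; limma adjusted p = 0.00987). C1qbp was the only one of the 15 to pass in Tlr4-mutant tumours, at -0.70 (limma adjusted p = 0.00371), and none passed in antibiotic tumours.

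Of 33 further coagulation genes 21 were tested, and in WT tumours 3 rose and 1 fell, which is 19% beside 39% of all genes. Annexin A2 (Anxa2), a cell-surface receptor for plasminogen and its activator, rose by 5.99 ± 0.48 (log2, SE; limma adjusted p = 6.62e-07), from a mean of 4.49 in normal liver to 10.48. The thrombin receptor F2r rose by 0.89 (limma adjusted p = 0.0149) and the plasmin inhibitor Serpinf2 by 0.50 (limma adjusted p = 0.00340). Vkorc1l1, a relative of the vitamin K reductase, fell by 0.42 (limma adjusted p = 0.0465). Anxa2 and F2r also rose in Tlr4-mutant tumours (4.87 and 1.05) and in antibiotic tumours (5.49 and 1.00). In Tlr4-mutant tumours 5 rose and 2 fell, which is 33.3% beside 22.3% of all genes. Serpinf2 (0.82) and Serpind1 (0.80) were also among the larger rises there, and S100a10 (-1.31) and Vkorc1l1 (-0.55) were the falls.

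Of 13 transcription factors that act in hepatocytes 12 were tested. In WT tumours 4 fell and 0 rose: Nr1h4, the bile acid receptor, by 1.31, Ppara, which controls fatty acid oxidation, by 1.29, Cebpa by 1.19 and Cebpb, a mediator of the acute-phase response, by 0.92 (limma adjusted p = 0.0230, 0.00866, 0.00529 and 0.0378). The 4 are 33.3% of the 12, beside 20.2% of all genes that fell and 39% that changed, and the median over the 12 was -0.75, beside -0.01 over all genes. In Tlr4-mutant tumours Cebpb (-1.20) and Ppara (-1.08) fell and Stat3 (0.65) rose, and in antibiotic tumours Ppara (-1.27) fell. None of the genes on these 3 further lists passed in a comparison between tumour groups.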

How the data were processed

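Total RNA of dissected tissue was amplified, labelled and hybridised to Affymetrix mouse whole-genome expression arrays, per the labels' protocols. The authors deposited 1 log2 value per probe set and array, normalised with GCRMA, per the submitters' processing notes; its version is not given in the sources used here. In general GCRMA subtracts a background estimated from probe sequence and fits each probe set across arrays, and it sets dim probe sets to a low plateau, so that changes from near background are poorly scaled. The number of arrays limits the precision. Of 45101 probe sets, 64 controls were left out, and probe sets naming 1 gene and above log2 4 on at least 3 arrays were kept (14689). Where a gene had several (3586 genes), that with the highest mean was used, leaving 9053 genes. Means of the 4 groups were fitted over all 18 arrays with limma 3.58.1 (R 4.3.3), whose moderated test was two-sided, and p-values were adjusted over the 9053 genes by Benjamini-Hochberg in each comparison, with 0.05 as the threshold. For the other probe sets of a gene, fit and adjustment were made over the 14689 kept probe sets instead. SDs are between samples, SEs come from the fit, and a fold "at least" is counted against log2 4. The script was tested on simulated data.

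The members, the further gene lists and the comparisons were chosen with earlier results of these data known, so no count over them is independent evidence. Values by sample were given for the 6 largest rises (5 passed) and 6 largest falls in WT tumours among members that passed without overlap, and for the 3 members of smallest p in each comparison between tumour groups. Those of C6, Cfi, Fgb, F2, C2 and Cfp were added after their values had been seen. Of other pathway genes, up to 4 with the largest passing change in each direction were named. Promoters came from a RefSeq table of build GRCm38.p6, which held 37 of the 46 members. Motifs were searched on both strands. Alternatives were the filter, the scaling, the choice of probe sets, the variance model, the threshold and each array left out. Figures were drawn with matplotlib 3.10.9.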

Additional observations from a re-analysis of the deposited data

Results flagged for a closer look

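In groups of 5 and 7 tumours, the gap between the most extreme sample and its nearest neighbour was set against the group's range for each of the 41 genes, and 4 of the 82 groups so tested had a sample that stood apart. Chance flags about 1 in 20 groups. Tissue factor (F3) read 3.69 in WT tumour 17, the next lowest WT tumour being at 5.80. Prothrombin (F2) read 13.09 in WT tumour 19, where the next was 13.36, and factor X (F10) read 10.86 in the same tumour, where the next was 11.55. Protein C (Proc) read 12.58 in Tlr4-mutant tumour 27, and the next highest Tlr4-mutant tumour was at 12.38.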

How the results depend on the processing

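Of the 41 members, 15 passed in WT tumours against normal liver; the number was 9 without probe sets of suffix s, x or a, 25 with array weights, 5 at a threshold of 0.01, 7 with a 2-fold minimum, and 7 to 15 with 1 array left out. In Tlr4-mutant tumours it was 6, and 17 with array weights, 12 with only those 2 groups fitted, 11 without WT tumours 17 and 19, 2 at 0.01, 1 with a 2-fold minimum, and 2 to 11 with 1 array left out. In antibiotic tumours it was 3, and 5 with only those 2 groups fitted, 5 without WT tumours 17 and 19, 0 at 0.01, 0 with a 2-fold minimum, and 1 to 6 with 1 array left out. No filter, a stricter filter, the mean over probe sets, another scaling (centred or quantile) and a trended or robust variance moved the number in WT tumours to between 11 and 18. Between tumour groups it was 0 in every setting. Each setting refits all genes as well, and the shares of all genes passing are not given here. The counts therefore show only how the calls depend on the settings. Among the gene results that passed against normal liver or had the smallest p between tumour groups, 5 values reversed, all from other probe sets of Masp1: 0.0162 in WT tumours against normal liver, -0.12 and -0.27 in Tlr4-mutant against WT tumours, and -0.00885 and -0.13 in antibiotic against WT tumours; the cause was not tested. The probe set alternative was chosen after seeing the data. No paired analysis was possible because the groups share no replicate numbers.

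With 3 normal livers and 3 antibiotic tumours, each of these arrays weighs heavily, and the falls called in WT tumours other than those of Masp1, Masp2, C8b and Klkb1 needed all 3 normal livers. The fall of Masp1 passed in its brightest probe set only. Signals near log2 4, as for Tfpi, Cfp and F8, give poorly scaled differences. RNA levels in tumour tissue do not measure the plasma proteins.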
